A study of Mus musculus with 24 samples.

Results

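The naive pluripotency factors are 10 transcription regulators of the mouse embryonic stem cell (mESC), Nanog, Zfp42, Klf2, Klf4, Klf5, Esrrb, Tbx3, Tfcp2l1, Nr0b1 and Prdm14, which were taken by name from the 35591 genes of a raw count table. The list was chosen with earlier results of these data known. All 10 were found, 1 entry each. Expression was measured by poly(A) RNA sequencing in 24 libraries from 6 male mESC lines on their way to neuromesodermal progenitors (NMPs), the cells that give rise to spinal cord and trunk mesoderm. The wild-type lines (wt, 3 lines) had the genotype Smchd1[fl/+] and the heterozygous lines (het, 3 lines) had Smchd1[del/+]. All 6 lines came from the reciprocal cross of a Castaneus mother with a C57BL/6 father with 1 deleted and 1 floxed allele and the MMTV-Cre transgene, so that the oocyte was wild type and the het lines lacked only the paternal copy of Smchd1, a gene for a chromatin silencing protein. Each line was sampled at day 0, in serum medium with the cytokine LIF, at day 2, in N2B27 medium with bFGF, and at day 2.5 and day 3, with the Wnt pathway activator CHIR99021 added from day 2. This gave 8 groups of 3 libraries, in which the replicate was the line, and equal line numbers in wt and het named different lines.

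In the mouse, naive pluripotency is the state of the preimplantation epiblast and of mESCs grown with LIF, and it is held by a network of transcription factors that bind one another's genes. LIF acts through STAT3 on Klf4 and Tfcp2l1, whereas GSK3 inhibition acts through TCF7L1 on Esrrb, Nanog and Tfcp2l1. When LIF is withdrawn and FGF signalling continues, the network is switched off and the cells pass through a formative state before they can enter a lineage. Of its members, Nanog is a homeodomain factor, Zfp42 (Rex1) a zinc finger protein used as a reporter of the naive state, Klf2, Klf4 and Klf5 are Krüppel-like factors, and Esrrb and Nr0b1 (Dax1) belong to the nuclear receptor family. Tfcp2l1 is a grainyhead-like factor, Tbx3 a T-box factor that also acts in extraembryonic endoderm, and Prdm14 a PR domain protein that restrains FGF signalling and DNA methyltransferases.

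Library totals ranged from 7.10 to 20.8 M (mega) counts with a median of 17.9 M, and the smallest was wt day 2.5 line 2. Levels are given as counts per M counts (CPM) with the trimmed mean of M-values (TMM) as scaling over the 24 libraries, and 3 counts, taken as the floor, were worth 0.144 to 0.422 CPM. Floors cover counting error only. Smchd1 ranged from 124 to 217 CPM in the wt libraries and from 87.3 to 124 CPM in the het libraries, with no overlap on any single day. In wt line 1, the median log2 ratio to the mean of the 6 lines was 0.18 for the 670 tested genes on chromosome 8, against at most 0.06 in size for any other line and chromosome, and Zfp42 and Klf2 lie on this chromosome. The NMP markers T and Cdx2 were at or below 4.42 and 3.28 CPM in every library of day 0 and day 2, and at or above 159 and 98.9 CPM in every library of day 2.5 and day 3. In bulk RNA, fewer cells that express a gene and less of its RNA per cell cannot be told apart.

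Promoters were matched by symbol to RefSeq (GRCm38.p6) for 7 of the 10 members, Nanog, Zfp42, Klf2, Klf4, Esrrb, Tfcp2l1 and Nr0b1, with 9 start sites in all. The 250 bases before each start were searched on both strands for the Krüppel-like factor box CACCC, the ESRRB site AAGGTCA, the STAT site TTCNNNGAA, the TCF/LEF box CTTTGAT and the octamer ATGCAAA, which is bound by POU5F1. The 3 windows shown belong to the 3 members with the highest level per length at day 0. The lines run 5′ to 3′ on the gene's strand and capitals mark the matches to any of the 5 motifs.
Nanog, chr6:122707239-122707488, plus strand: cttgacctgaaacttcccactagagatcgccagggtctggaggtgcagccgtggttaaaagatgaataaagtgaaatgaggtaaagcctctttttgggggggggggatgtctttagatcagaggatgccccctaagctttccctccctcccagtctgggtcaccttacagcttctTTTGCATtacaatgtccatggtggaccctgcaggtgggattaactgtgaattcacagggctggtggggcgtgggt
Zfp42, chr8:43307010-43307259, minus strand: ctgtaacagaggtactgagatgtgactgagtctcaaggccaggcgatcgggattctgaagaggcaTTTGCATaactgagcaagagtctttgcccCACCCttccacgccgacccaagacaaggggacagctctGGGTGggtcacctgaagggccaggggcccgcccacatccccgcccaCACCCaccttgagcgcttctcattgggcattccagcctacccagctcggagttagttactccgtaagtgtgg
Esrrb, chr12:86360867-86361116, plus strand: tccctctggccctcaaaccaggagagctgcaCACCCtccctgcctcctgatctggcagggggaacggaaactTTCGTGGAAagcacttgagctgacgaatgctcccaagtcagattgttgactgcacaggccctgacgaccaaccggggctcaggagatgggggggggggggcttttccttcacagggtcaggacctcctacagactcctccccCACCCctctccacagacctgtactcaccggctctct

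The octamer occurred on the opposite strand in the Nanog window, 75 to 69 bases before the start, and in the Zfp42 window, 185 to 179 bases before it. Of the 9 member windows 3 held an octamer match, since the Nanog site lay in both overlapping windows of that gene. Of all 32851 windows of this length, 4.12% held one. Matches to the box CACCC in Nanog lay only in its other window, which is not shown. The STAT site was met once among the 9 member windows, in Esrrb, and in 7.02% of all windows. The box CACCC lay in 6 of the 9, against 52% of all windows, and neither the ESRRB site nor the TCF/LEF box was met in the 9, against 4.08% and 3.21% of all windows. No match lay in the windows of Klf4 and Tfcp2l1. No match overlapped another. These matches are descriptions of letters and not of bound sites.

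The members lie on 8 chromosomes, and the coordinates follow GRCm38. Nanog (ENSMUSG00000012396) is at chr6:122707489-122714633, Zfp42 (ENSMUSG00000051176) at chr8:43295063-43306980 and Klf2 (ENSMUSG00000055148) at chr8:72319033-72321656. Klf4 (ENSMUSG00000003032) is at chr4:55527143-55532466, Klf5 (ENSMUSG00000005148) at chr14:99298691-99315036 and Esrrb (ENSMUSG00000021255) at chr12:86361117-86521628. Tbx3 (ENSMUSG00000018604) is at chr5:119670669-119684724, Tfcp2l1 (ENSMUSG00000026380) at chr1:118627945-118685168, Nr0b1 (ENSMUSG00000025056) at chrX:86191764-86195947 and Prdm14 (ENSMUSG00000042414) at chr1:13113457-13127163. All 10 are protein-coding. Between 95.2% of the 75-base stretches of their exons, in Zfp42, and 100% were found only once among all exons, so that few reads could be shared with another gene.

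At day 0 the members spanned a wide range of levels per kilobase of exon. The mean reads per kilobase per M counts (RPKM) were 157 ± 15.1 in wt and 169 ± 21.5 in het for Nanog, and 129 ± 12.996 and 126 ± 5.66 for Zfp42 (SD, n = 3). Esrrb followed with 59.8 in wt and 61.9 in het, Nr0b1 with 55.7 and 49.5, Klf2 with 38.3 and 28.8, Klf5 with 27.1 and 27.2, and Klf4 with 24.3 and 23.98 mean RPKM. Tfcp2l1 had 12.98 and 16.9, Prdm14 4.10 and 3.92, and Tbx3 3.98 and 3.37 mean RPKM in wt and het. Nanog and Zfp42 thus stood above the other 8 in both genotypes, and Prdm14 and Tbx3 below them.

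**Figure D1:**
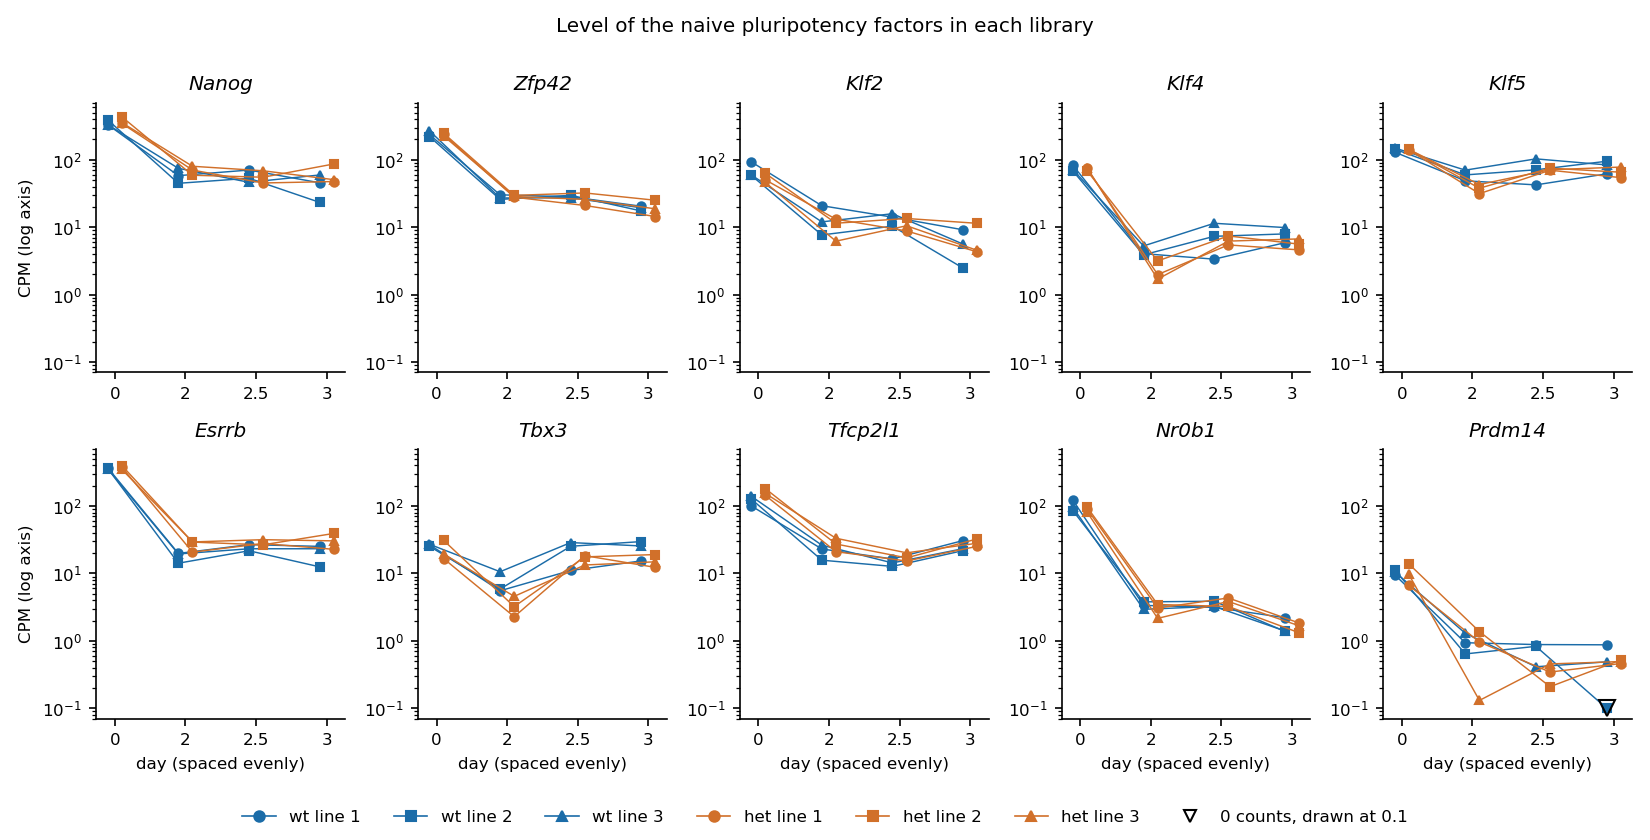
Level of each naive pluripotency factor in CPM (log axis) in each of the 24 libraries, by day, with the libraries of a line joined; wt lines are blue, het lines orange, and the open triangle marks the 1 library with 0 counts (Prdm14, wt day 3 line 2), drawn at 0.1. All 10 factors were lower at day 2 than at day 0 in every line, and Tbx3 was higher at day 2.5 than at day 2 in every line.

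The first step, from day 0 to day 2, compares cells in serum medium with LIF with cells 2 days after the change to N2B27 with bFGF, before Wnt activation. Serum and LIF were thus removed together. Per the study's methods, the lines had before been moved in stages from an inhibitor medium with LIF, which held CHIR99021, towards the serum medium. All 10 factors fell in wt and all 10 fell in het, and in each case the 3 day 2 libraries lay below the 3 day 0 libraries. The share of all tested genes called lower was 21.9% in wt and 28.1% in het, that called higher 22.4% and 28%, and the share whose groups lay apart in this direction was 27.1% and 32.3%. The median log2 fold change of the members was -2.84 in wt and -2.88 in het, beside 0.02 and 0.01 over all genes tested. Of the endoderm markers, 8 of 11 tested were called higher in this step in each genotype. Their median log2 fold change was 1.375 in wt and 1.118 in het, and their part in the fall of the members was not tested. A gene is said to rise or fall where its adjusted p was under 0.05, by the edgeR quasi-likelihood test with Benjamini-Hochberg adjustment over all genes tested.

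Nr0b1, an orphan nuclear receptor that binds POU5F1 and restrains its activity, fell furthest in wt. In wt lines 1 to 3 it had 122, 85.2 and 95.3 CPM at day 0, and 3.36, 3.78 and 2.93 CPM at day 2. Het lines 1 to 3 had 90.3, 96.5 and 81.5 CPM at day 0, and 3.06, 3.46 and 2.15 CPM at day 2. The 2 days were far apart in each line, and the lines of both genotypes overlapped at day 2. On the log2 scale the change was -4.90 (adjusted p = 4.19e-10, SE 0.19) in wt and -4.93 (adjusted p = 2.25e-12, SE 0.15) in het. Klf4, the LIF-responsive Krüppel-like factor, had 82.7, 68.2 and 71.3 CPM in wt lines 1 to 3 at day 0, and 4.05, 3.89 and 5.27 at day 2. In het lines 1 to 3 it had 74.5, 68.8 and 76.1 CPM at day 0, and 1.98, 3.16 and 1.70 at day 2. The het lines all lay below the wt lines at day 2 but not at day 0. Its log2 fold change was -4.06 (adjusted p = 1.24e-09, SE 0.18) in wt and -4.98 (adjusted p = 6.69e-12, SE 0.18) in het.

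Esrrb, an orphan receptor and a target of the GSK3 and TCF7L1 axis, had 369, 362 and 355 CPM in wt lines 1 to 3 at day 0, and 19.8, 14.2 and 19.4 at day 2. The het lines had 375, 399 and 349 CPM at day 0, and 20.7, 29.2 and 29.3 CPM at day 2. At day 2 the lowest het line lay just above the highest wt line. edgeR gave a log2 fold change of -4.34 (adjusted p = 1.03e-10, SE 0.14) in wt and -3.82 (adjusted p = 1.06e-12, SE 0.11) in het. Tfcp2l1, a STAT3 target, had 101, 127 and 140 CPM in wt lines 1 to 3 at day 0, and 23.0, 15.7 and 26.3 at day 2. In het it had 144, 181 and 154 CPM at day 0, and 21.0, 27.3 and 33.2 at day 2. Here the het lines were all above the wt lines at day 0, and the genotypes overlapped at day 2. It fell by 2.49 on the log2 scale in wt (adjusted p = 1.65e-07, SE 0.18) and by 2.55 in het (adjusted p = 4.39e-10, SE 0.13).

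Nanog had 333, 391 and 332 CPM in wt lines 1 to 3 at day 0, and 58.1, 44.7 and 74.7 at day 2. In the het lines it had 346, 434 and 356 CPM at day 0, and 70.3, 59.0 and 80.1 at day 2. Line 2 of both genotypes was highest at day 0 and lowest at day 2. Nanog fell by 2.56 on the log2 scale in wt (adjusted p = 4.28e-08, SE 0.16) and by 2.43 in het (adjusted p = 5.34e-11, SE 0.10). Zfp42 had 236, 221 and 269 CPM in wt lines 1 to 3 at day 0, and 30.2, 25.8 and 27.1 at day 2. The het lines had 238, 248 and 227 CPM at day 0, and 27.8, 29.6 and 28.5 at day 2. The genotypes overlapped on both days. Its change on the log2 scale was -3.12 in wt (adjusted p = 4.46e-10, SE 0.12) and -3.04 in het (adjusted p = 2.89e-13, SE 0.08).

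Klf2, the Krüppel-like factor that mESCs keep through MEK inhibition, had 93.4, 58.9 and 59.8 CPM in wt lines 1 to 3 at day 0, and 20.8, 7.67 and 11.98 at day 2. Het lines 1 to 3 had 50.4, 62.9 and 46.0 CPM at day 0, and 13.1, 11.4 and 6.20 at day 2. Line 1, whose chromosome 8 genes were high as a group, was the highest wt line on both days. On the log2 scale the change was -2.38 (adjusted p = 1.68e-05, SE 0.29) in wt and -2.35 (adjusted p = 1.37e-07, SE 0.21) in het, and without wt line 1 it was -2.58 in wt (adjusted p = 4.06e-06). Zfp42 changed by -3.20 without that line. Prdm14, the scarcest member with Tbx3, had 9.57, 11.3 and 10.6 CPM in wt lines 1 to 3 at day 0, and 0.938, 0.639 and 1.29 at day 2, from 12 to 26 counts a library. In het it had 6.64, 13.9 and 9.68 CPM at day 0, and 0.960, 1.37 and 0.131 at day 2, the last from 2 counts. All day 2 libraries were low, and het line 3 lay under the floor. Its log2 fold change was -3.44 (adjusted p = 5.00e-06, SE 0.36) in wt and -3.57 (adjusted p = 1.32e-05, SE 0.48) in het.

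Klf5 and Tbx3 fell least in wt. Klf5, a Krüppel-like factor with roles in mESCs and in the trophectoderm, had 130, 144 and 150 CPM in wt lines 1 to 3 at day 0, and 48.8, 59.6 and 70.2 at day 2. In het it had 140, 143 and 143 CPM at day 0, and 31.4, 37.9 and 43.0 at day 2. The het lines were all below the wt lines at day 2, after levels within the wt range at day 0. edgeR gave a log2 fold change of -1.24 (adjusted p = 6.06e-06, SE 0.13) in wt and -1.91 (adjusted p = 4.24e-10, SE 0.10) in het. Tbx3 had 26.7, 25.2 and 27.1 CPM in wt lines 1 to 3 at day 0, and 5.53, 5.86 and 10.6 at day 2. In het it had 16.6, 31.0 and 19.4 CPM at day 0, and 2.28, 3.22 and 4.57 at day 2. Line 3 was the highest at day 2 in both genotypes, and the het lines again lay below the wt lines. Tbx3 changed by -1.84 on the log2 scale in wt (adjusted p = 3.97e-05, SE 0.25) and by -2.73 in het (adjusted p = 5.90e-07, SE 0.27). Its exons overlap those of Tbx3os1 on the other strand, and without a stated strand setting the reads of the pair cannot be told apart.

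**Figure D2:**
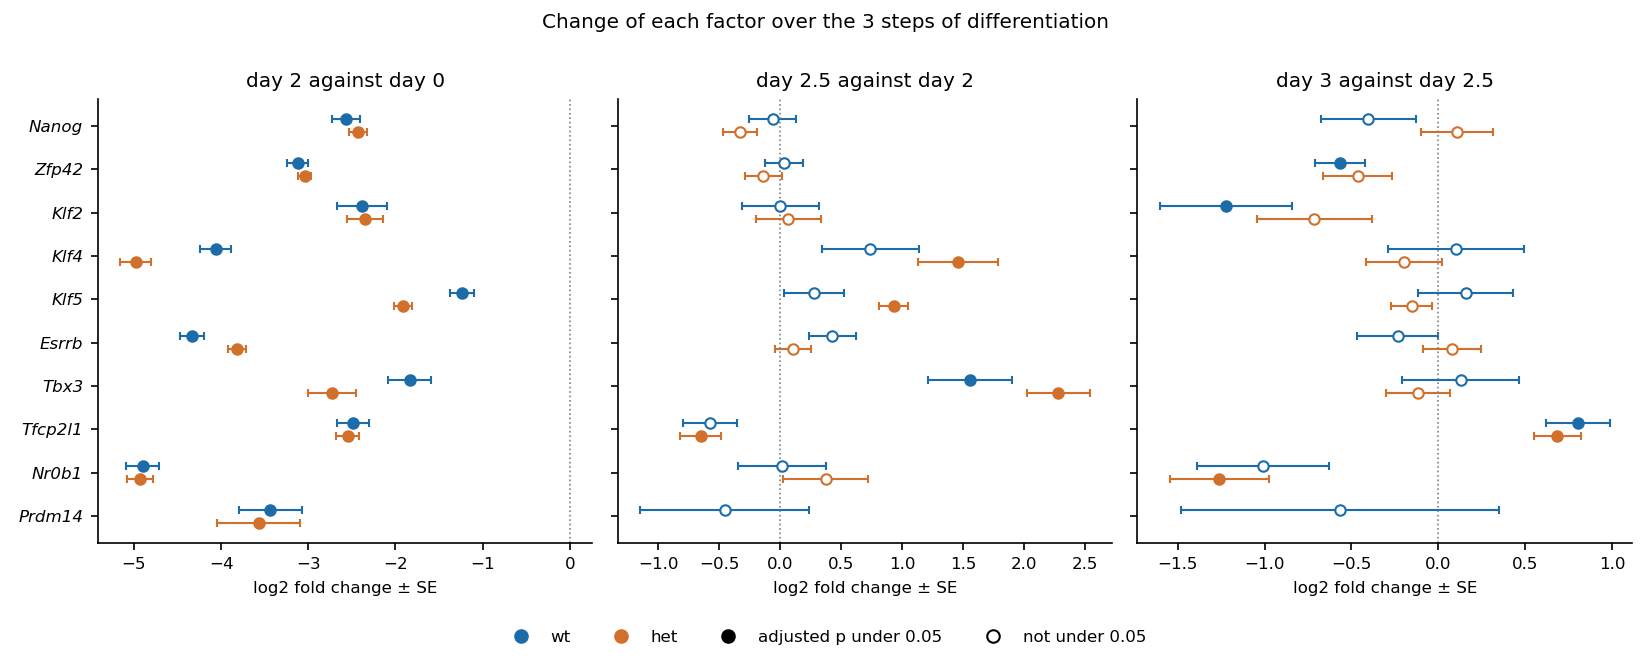
Log2 fold change of each factor over the 3 steps of differentiation, with bars of 1 standard error, for wt (blue) and het (orange); filled circles have an edgeR adjusted p under 0.05. All 20 values of the first step were negative and filled, from -4.98 to -1.24, whereas in the second step Tbx3 rose in both genotypes, by 1.55 and 2.28, and in the third step Tfcp2l1 rose in both, by 0.80 and 0.69.

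The second step, from day 2 to day 2.5, covers the first hours of Wnt activation. It shares its day 2 libraries with the first step. In wt, 1 of 10 members rose, Tbx3, and 0 fell, beside 14.6% of all tested genes called higher and 14.5% called lower. DESeq2 called 1 higher and 1 lower, beside 31.6% of all genes in either direction. At an unadjusted p under 0.05 there were 3 members of 10 in wt, beside 40.3% of all genes tested, and 5 of 9 in het, beside 51.6%. In het, 3 of the 9 tested members rose, Tbx3, Klf4 and Klf5, and 1 fell, Tfcp2l1, beside 21.8% and 22.9% of all tested genes. Prdm14, with 4 to 9 counts in the het libraries of day 2.5, did not pass the filter. Markers of endoderm moved in the same step and genotype, since 8 of 11 tested rose in het and 0 of 11 in wt, with median log2 fold changes of 0.67 and 0.06, and of the trophoblast markers 3 of 6 rose in het (Eomes, Hand1 and Krt8), while 1 of 6 rose (Eomes) and 1 fell (Gata3) in wt. Eomes is also on the list of NMP and primitive streak genes. In the interaction of genotype and step, 0 of 12 endoderm markers were called. The part of these cells in the rise of Tbx3, Klf4 and Klf5 was not tested. The median log2 fold change of the members was 0.02 in wt and 0.10 in het, against 0.00 and 0.01 for all genes.

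Tbx3 reached 11.1, 25.3 and 28.7 CPM in wt lines 1 to 3 at day 2.5, and 18.3, 17.6 and 13.3 in the het lines. In each line it was above its day 2 level, and wt line 1 was the lowest of the 6. Its change on the log2 scale was 1.55 (adjusted p = 0.00497, SE 0.35) in wt and 2.28 (adjusted p = 1.01e-05, SE 0.26) in het. Klf5 had 42.4, 71.0 and 103 CPM in wt lines 1 to 3, and 70.0, 75.1 and 71.1 in het. The wt lines were spread, with line 1 below its day 2 level, whereas the het lines were close together and all above theirs. Klf5 rose in het by a log2 fold change of 0.93 (adjusted p = 2.52e-05, SE 0.12). Klf4 had 3.36, 7.32 and 11.4 CPM in wt lines 1 to 3, and 5.46, 7.41 and 6.21 in het. Again wt line 1 was the only line that did not exceed its day 2 level, and Klf4 rose in het by 1.45 on the log2 scale (adjusted p = 0.00246, SE 0.33). Without wt day 2.5 line 1, the number of members called higher in wt was 3, Tbx3, Klf4 and Klf5.

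Tfcp2l1 moved the other way. Its level was 16.4, 12.7 and 14.3 CPM in wt lines 1 to 3 at day 2.5, and 15.3, 17.0 and 20.2 CPM in het. Each line was below its own day 2 level. On the log2 scale the change was -0.66 (adjusted p = 0.00637, SE 0.17) in het and -0.58 in wt (adjusted p = 0.0636, SE 0.22), where a fit with the line as a block gave an adjusted p of 0.0399. Esrrb had 26.7, 21.7 and 23.2 CPM in wt and 27.8, 26.6 and 31.7 in het. The wt lines all lay above the wt day 2 libraries, by a log2 fold change of 0.42 that did not pass the adjustment (adjusted p = 0.118, SE 0.19). Nanog, at 70.4, 53.2 and 46.4 CPM in wt lines 1 to 3 and 45.3, 55.1 and 68.7 in het, overlapped its day 2 levels in both genotypes. In het its log2 fold change was -0.33 (adjusted p = 0.0712, SE 0.14), and the fit with the line as a block gave -0.34 with an adjusted p of 0.0312. The other members, Zfp42 at 21.0 to 32.2 CPM, Klf2 at 8.80 to 15.8, Nr0b1 at 3.14 to 4.33 and Prdm14 at 0.209 to 0.880, had an unadjusted p of 0.05 or more in both genotypes where they were tested.

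The third step, from day 2.5 to day 3, follows the cells under continued Wnt activation. In wt, 1 of 10 members rose, Tfcp2l1, and 2 fell, Zfp42 and Klf2, beside 8.99% of all tested genes called higher and 10.1% called lower. In het, 1 of 9 rose, again Tfcp2l1, and 1 fell, Nr0b1, beside 13.8% and 16%. The median log2 fold change of the members was -0.32 in wt and -0.15 in het, and that of all genes 0.00 and -0.02.

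Tfcp2l1 had 30.7, 21.8 and 23.3 CPM in wt lines 1 to 3 at day 3, and 25.2, 32.5 and 28.0 in het. All 6 lines were above their day 2.5 level, and the groups of the 2 days did not overlap in either genotype. Its log2 fold change was 0.80 (adjusted p = 0.0138, SE 0.18) in wt and 0.69 (adjusted p = 0.00342, SE 0.14) in het. In wt this call was lost without wt day 2.5 line 2 (adjusted p = 0.0573) and without wt day 3 line 1 (adjusted p = 0.0546). A small RNA gene, Gm23497, overlaps an exon of Tfcp2l1 on the same strand.

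Zfp42 had 20.4, 17.4 and 19.4 CPM in wt lines 1 to 3 at day 3, and 14.4, 25.1 and 18.7 in het. In wt all lines were lower than any day 2.5 library, while in het the days overlapped and line 2 was high. edgeR gave a log2 fold change of -0.57 (adjusted p = 0.0207, SE 0.14) in wt and -0.47 (adjusted p = 0.102, SE 0.20) in het, where the fit with the line as a block gave an adjusted p of 0.00985. The wt call was lost without wt day 2.5 line 2 (adjusted p = 0.0723), wt day 3 line 2 (0.0763) or wt day 3 line 3 (0.0749). Klf2 had 9.14, 2.47 and 5.61 CPM in wt lines 1 to 3, and 4.30, 11.4 and 4.53 in het. Line 2 was the lowest in wt and the highest in het. In het the fit with the line as a block gave a log2 fold change of -0.83 (adjusted p = 0.013), against an adjusted p of 0.126 without it. In wt the log2 fold change was -1.22 (adjusted p = 0.0456, SE 0.38), and without wt line 1 on both days it was -1.72 (adjusted p = 0.00239). This call was lost when any one of 5 single libraries was left out, all but wt day 3 line 1, with adjusted p from 0.0649 to 0.128. Nr0b1 had 2.21, 1.38 and 1.40 CPM in wt lines 1 to 3, from 23 to 48 counts, and 1.84, 1.32 and 1.67 in het. All 6 lines were below their level at day 2.5. It fell in het by 1.26 on the log2 scale (adjusted p = 0.00685, SE 0.29), and its log2 fold change in wt was -1.01 (adjusted p = 0.0841, SE 0.38), with an adjusted p of 0.00255 in 1 fit of all 24 libraries.

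The other members held levels that the third step did not separate. Nanog was at 45.6, 23.4 and 59.5 CPM in wt lines 1 to 3 and at 47.5, 86.6 and 50.7 in het at day 3. Its lowest library was wt line 2 and its highest het line 2. Esrrb was at 25.2, 12.5 and 23.2 CPM in wt and at 22.8, 39.2 and 30.4 in het, and showed the same 2 extremes. Tbx3 was at 15.3, 29.7 and 25.5 CPM in wt and at 12.3, 19.0 and 14.9 in het. Klf5 was at 61.8, 95.0 and 83.9 CPM in wt and at 54.4, 65.4 and 77.9 in het, and Klf4 at 5.88, 7.95 and 9.88 in wt and at 4.61, 5.61 and 6.70 in het. Line 1 was the lowest line for these 3 genes in both genotypes, and also for the summed endoderm markers given below. Prdm14 had 0.873, 0 and 0.488 CPM in wt, from 19, 0 and 8 counts, and 0.461, 0.519 and 0.493 in het, so that the level in wt line 2 was not detectable at this depth.

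**Figure D3:**
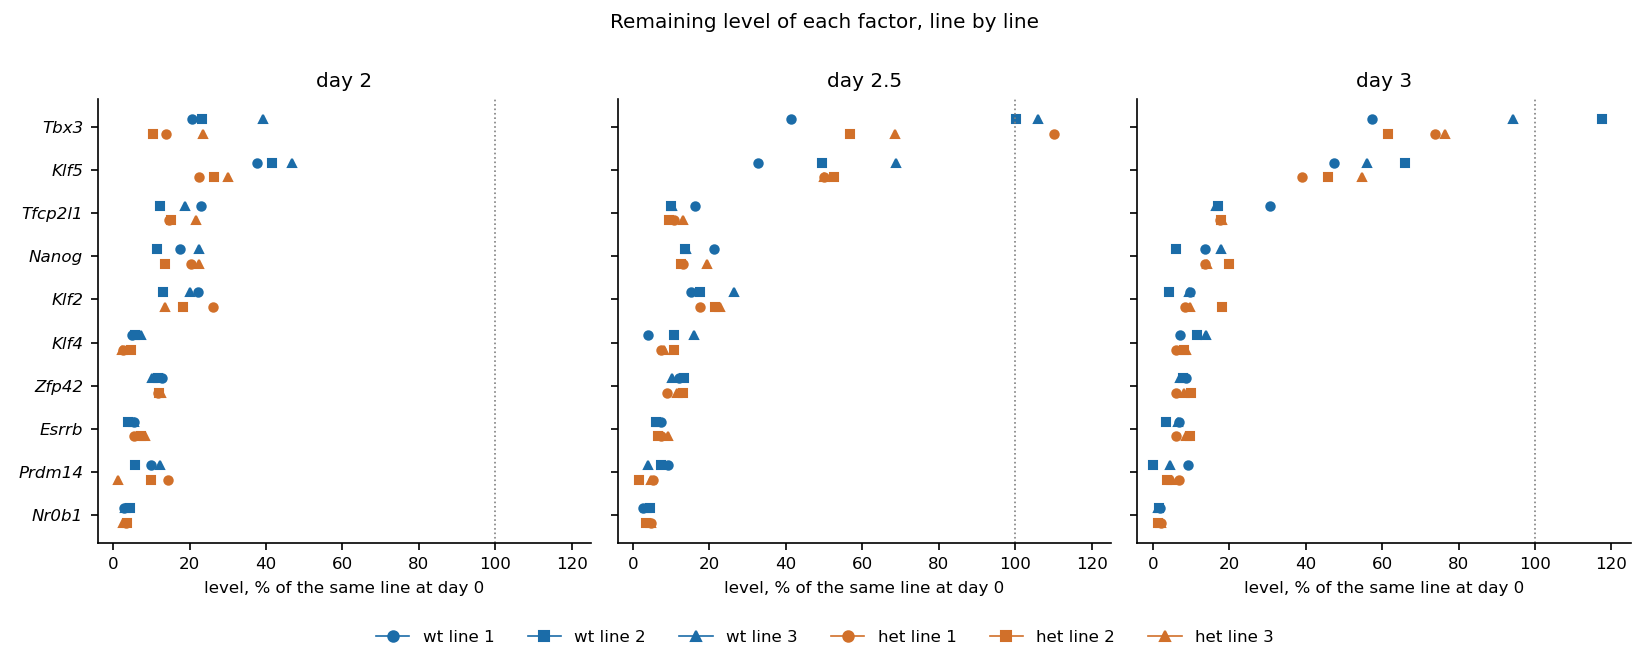
Level of each factor as a percentage of the same line's level at day 0 (x axis, linear), at day 2, day 2.5 and day 3, with 1 symbol per line (wt blue, het orange) and a dotted line at 100%. At day 3, Nr0b1 lay between 1.37% and 2.06% in the 6 lines, and Tbx3 between 57.4% and 118%.

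Line by line against day 0, Tbx3 and Klf5 kept the largest shares of their level at day 3. At day 2 the mean over the 6 lines ran from 3.32% for Nr0b1 to 34.2% for Klf5, with a median over the members of 14.7%. At day 3 it ran from 1.73% for Nr0b1 to 80.2% for Tbx3, with a median of 9.64%. In wt at day 3, Esrrb kept 5.61 ± 1.87%, Zfp42 7.90 ± 0.72%, Klf2 7.79 ± 3.12%, Klf4 10.9 ± 3.44%, Nanog 12.5 ± 6.06% and Tfcp2l1 21.5 ± 7.89% (SD, n = 3). In het these were 8.20 ± 1.93%, 8.14 ± 2.04%, 12.2 ± 5.21%, 7.71 ± 1.36%, 16.0 ± 3.45% and 17.9 ± 0.33%. Klf5 kept 56.6 ± 9.28% in wt and 46.5 ± 7.90% in het, and Tbx3 89.8 ± 30.3% and 70.6 ± 8.03%. Of the 10 members, 9 were below 100% in all 6 lines at day 2.5 and at day 3, and Tbx3 exceeded 100% in wt lines 2 and 3 and het line 1 at day 2.5 and in wt line 2 at day 3.

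Het and wt lines were compared on each day to ask whether 1 working copy of Smchd1 alters the level of the naive factors or the timing of their loss. On none of the 4 days did a member pass the adjusted threshold in edgeR, of 10, 10, 9 and 9 tested, beside 0%, 0.551%, 0% and 0.00638% of all genes tested. At an unadjusted p under 0.05 the numbers were 2, 4, 0 and 2, beside 10.9%, 10.2%, 5.27% and 9.13% of all genes tested. By DESeq2 they were 0, 1, 0 and 0 at an adjusted p under 0.05, beside 0.97%, 1.84%, 0.019% and 0.856% of all genes given an adjusted p. The sizes below are given with their errors and not as changes.

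At day 0 the members with the smallest p were Tfcp2l1, which was 0.37 higher on the log2 scale in the het lines (adjusted p = 0.344, SE 0.11), and Klf2, with -0.43 (adjusted p = 0.411, SE 0.18). The 3 het lines were above the 3 wt lines for Tfcp2l1. For Klf2 the difference was -0.17 (adjusted p = 0.715) without wt line 1, the highest library. At day 2, Klf5 differed by -0.68 (adjusted p = 0.0633, SE 0.15), Tbx3 by -1.14 (adjusted p = 0.232, SE 0.36), Klf4 by -0.95 (adjusted p = 0.427, SE 0.41) and Esrrb by 0.56 (adjusted p = 0.27, SE 0.19). For these 4 genes the 3 het lines and the 3 wt lines did not overlap, in the direction of the sign. Groups lay apart for 16% of all genes tested at day 2, in either direction, and for 16.7% at day 0. Klf5 passed by DESeq2 (adjusted p = 0.00611) and without wt day 2 line 1 (-0.81, adjusted p = 0.0102). At day 2.5 the 9 log2 fold changes lay between -0.39 and 0.27, and the lines overlapped for all 9, where 11.3% of all genes lay apart. At day 3, Tbx3 differed by -0.62 (adjusted p = 0.494, SE 0.24) and Esrrb by 0.59 (adjusted p = 0.517, SE 0.25), with overlapping lines, where 13.9% of all genes lay apart.

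**Figure D4:**
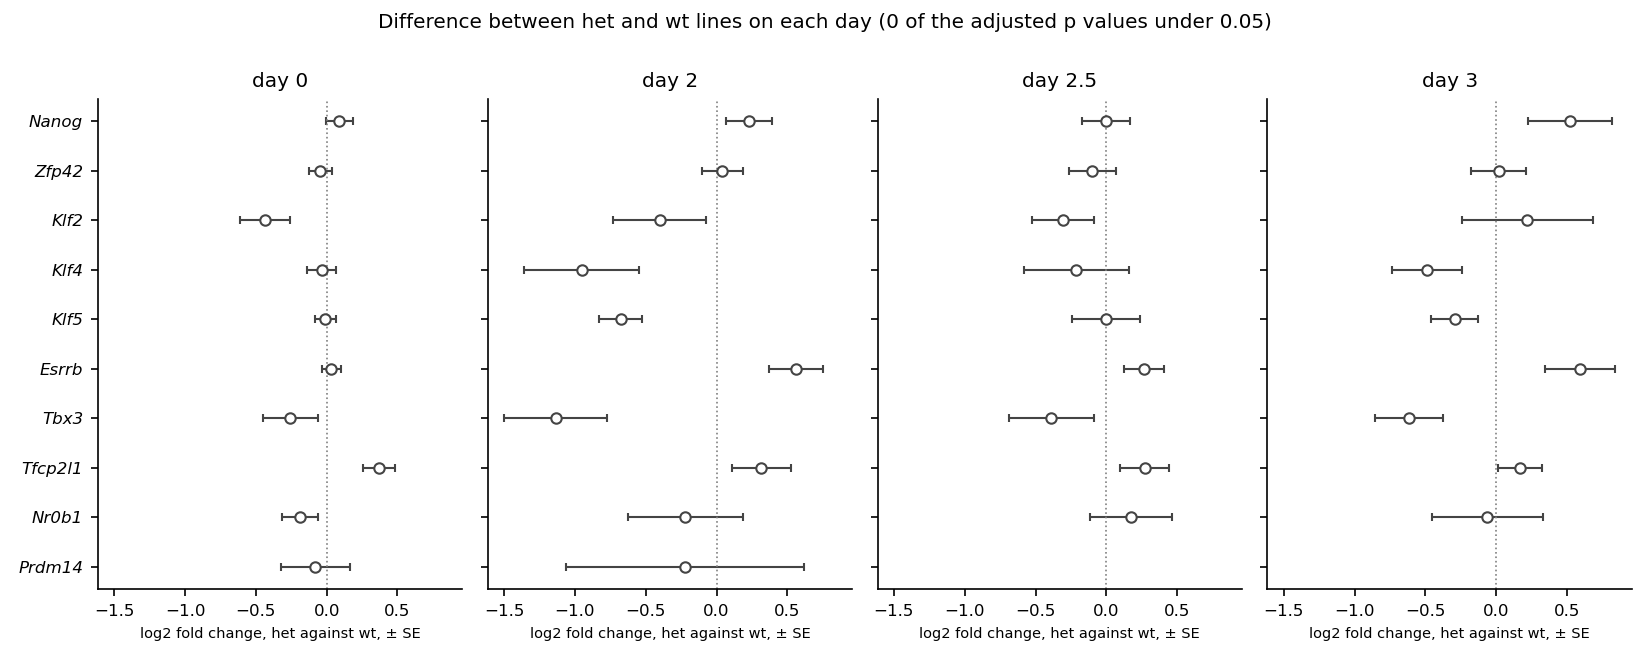
Log2 fold change of het against wt for each factor on each of the 4 days, with bars of 1 standard error; open circles mark an edgeR adjusted p of 0.05 or more, which held for all values. The values ran from -1.14 for Tbx3 at day 2 to 0.59 for Esrrb at day 3, and Prdm14 was not tested at day 2.5 and day 3.

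Whether the steps themselves differed between genotypes was tested as an interaction. None of the 10 members passed in any of the 3 steps, beside 0% of all genes tested in each. By DESeq2 0 members passed either, beside 0.0366%, 0% and 0% of all genes. At an unadjusted p under 0.05 there were 4, 1 and 0 in the 3 steps, beside 6.31%, 5.13% and 3.85% of all genes tested. The 4 of the first step were Klf4 with an interaction of -0.91 on the log2 scale (adjusted p = 0.754, SE 0.26), Klf5 with -0.67 (adjusted p = 0.678, SE 0.17), Tbx3 with -0.88 (adjusted p = 0.779, SE 0.39) and Esrrb with 0.53 (adjusted p = 0.754, SE 0.17). The negative sign means a larger fall in het. The 1 of the second step was Klf5, with 0.66 (adjusted p = 0.953, SE 0.31). The rise of Klf4 and Klf5 that was called in het and not in wt in the second step was therefore not shown to differ between the genotypes.

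**Figure D5:**
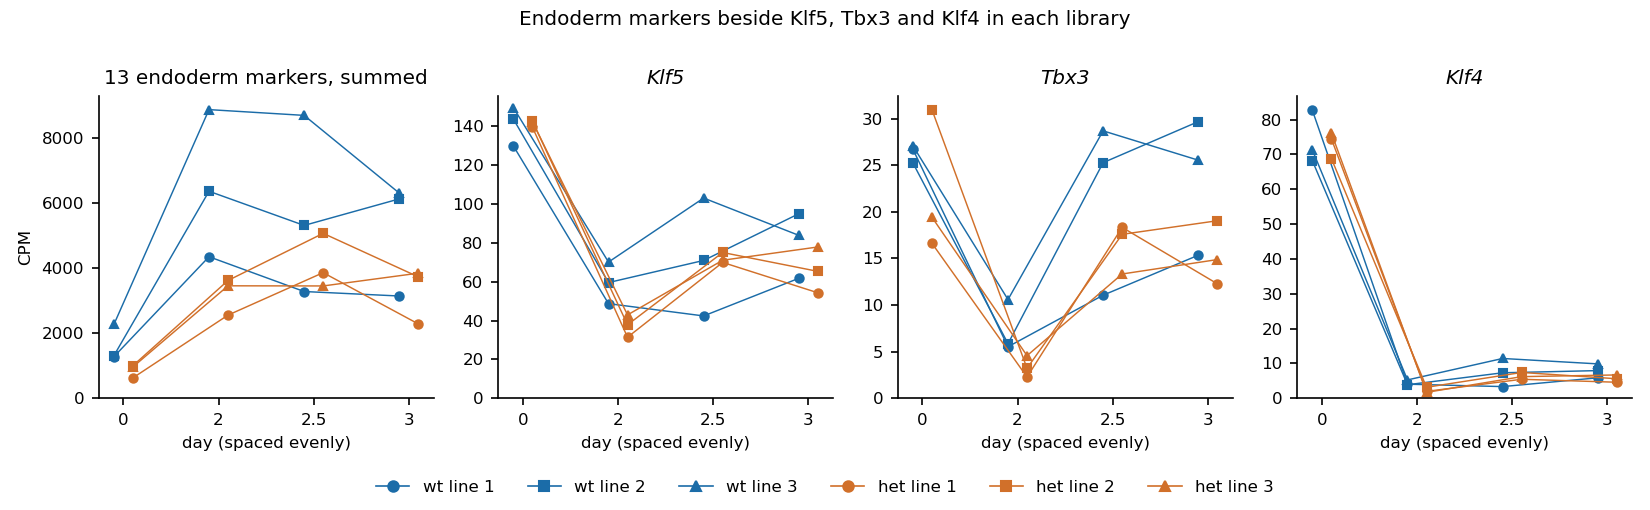
Summed CPM of 13 endoderm markers and CPM of Klf5, Tbx3 and Klf4 (linear axes from 0) in each library by day, with the libraries of a line joined, wt in blue and het in orange. At day 2 the 3 het lines were below the 3 wt lines in all 4 panels, and at day 2.5 wt line 1 was the lowest wt line in all 4.

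Markers of endoderm moved with some of these values. The list held 13 genes of primitive, visceral, parietal and definitive endoderm, and their summed level at day 2 was 4353, 6367 and 8878 CPM in wt lines 1 to 3 and 2558, 3624 and 3459 in het lines 1 to 3. Most of the sum came from the matrix genes Col4a1 and Lama1, with means of 2657 and 2678 CPM in wt and 1311 and 1332 in het. At day 2, 9 of the 11 tested markers were lower in het against wt in edgeR, beside 0.551% of all genes called in either direction, with a median log2 fold change of -1.06 over the 11. Gata6 ranged from 32.1 to 54.0 CPM in wt and from 18.8 to 27.9 in het, and Sox17 from 11.1 to 17.3 and from 5.76 to 7.18, whereas Ttr and Afp were at most 0.789 and 0.053 CPM in any day 2 library. The het lines of Klf5, Tbx3 and Klf4 lay below the wt lines on the same day, and in the wt lines Klf5 and Tbx3 were lowest in line 1 and highest in line 3, as the markers were, while Klf4 was lowest in line 2. In the het lines the markers and Klf4 were highest in line 2, and Klf5 and Tbx3 in line 3. At day 2.5 the summed markers were 3283, 5316 and 8700 CPM in wt lines 1 to 3, in the order in which Tbx3, Klf5 and Klf4 stood, and 3864, 5072 and 3455 in het, where none of these 3 genes stood in the order of the markers. At day 3 the summed markers were 3145, 6132 and 6309 CPM in wt lines 1 to 3. This was the order of Klf4 but not of Klf5 or Tbx3. In het they were 2287, 3734 and 3847 CPM, the order of Klf4 and Klf5 but not of Tbx3. At day 0 Klf5 stood in the order of the markers in both genotypes, Tbx3 in het alone and Klf4 in neither. Between the genotypes, the markers also lay apart at day 0, at 1279 to 2270 CPM in wt and 628 to 1002 in het, with 0 of 11 called, and overlapped at day 3. The part of endoderm cells in the levels of Klf4, Klf5 and Tbx3 was not tested. At day 2 the summed trophoblast list, 7 genes, was 261 to 309 CPM in wt and 207 to 252 in het, which did not overlap either, with 0 of 6 tested genes called, and its part was not tested. The 6 genes of the 2-cell-like state summed to at most 15.3 CPM in any library, and the primordial germ cell list, 4 genes with Dppa3 among them, to 99.9 to 127 CPM at day 0 and 17.6 to 26.5 later.

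Other genes of the naive state followed the members in the first step. All 10 of the other naive genes fell in wt and 9 of 10 fell in het, with median log2 fold changes of -2.10 and -2.18, beside 21.9% and 28.1% of all genes tested. Tdh, the threonine dehydrogenase that mESCs rely on, went from 230 to 11.7 CPM in wt, a log2 fold change of -4.28 (adjusted p = 1.05e-10, SE 0.14), and from 216 to 11.45 in het, one of -4.23 (adjusted p = 4.53e-14, SE 0.09). In the second step it returned to 136 CPM in wt (3.53, adjusted p = 2.06e-07, SE 0.21) and to 120 CPM in het (3.36, adjusted p = 1.15e-10, SE 0.11), and in the third it dropped to 25.4 and 26.2 CPM. Fgf4, the ligand that drives exit from the naive state, did the reverse after day 2, with 155 CPM at day 2, 6.49 at day 2.5 and 29.1 at day 3 in wt, and 169, 4.465 and 24.15 in het. All of these changes of Tdh and Fgf4 passed in edgeR. Over the second step 2 of the 10 rose and 4 fell in wt, beside 14.6% and 14.5% of all genes tested, and 2 rose and 6 fell in het, beside 21.8% and 22.9%.

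Of 7 genes of the LIF and STAT3 pathway, 2 rose and 5 fell in the first step in each genotype, where 22.4% of all genes tested rose and 21.9% fell in wt, and 28% and 28.1% in het. Socs3, the STAT3 target that feeds back on the receptor, went from 102 to 13.7 CPM in wt (-2.89, adjusted p = 8.74e-09, SE 0.15) and from 87.3 to 15.0 in het (-2.53, adjusted p = 4.02e-11, SE 0.11). Stat3 itself fell by 0.98 and 1.24 on the log2 scale. In the second step, which adds the GSK3 inhibitor, 0 of the 7 rose, and 2 fell in wt and 4 in het, beside 14.5% and 22.9% of all genes called lower, with the kinase genes Pim3 and Pim1 foremost. Among 10 factors known to act on exit from the naive state, 2 rose and 7 fell in wt and 3 rose and 7 fell in het in the first step, and 6 and 8 fell in the second, where the shares of all genes were those just given. Tcf7l1, the repressor through which GSK3 inhibition acts, went from 64.2 CPM at day 0 to 31.8 at day 2 and 15.4 at day 2.5 in wt, and both changes were called.

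The 5 general pluripotency factors, which are shared with the later epiblast, fell in the first step in both genotypes, beside 21.9% and 28.1% of all genes tested, with median log2 fold changes of -1.14 in wt and -1.17 in het, which were smaller in size than the members' medians. Foxd3, a forkhead factor of the epiblast, went from 17.5 to 2.12 CPM in wt (-3.05, adjusted p = 2.41e-04, SE 0.51) and from 11.5 to 1.88 in het (-2.59, adjusted p = 1.46e-05, SE 0.35). Of the 7 formative and primed epiblast genes, 5 rose in wt and 6 in het in the first step, beside 22.4% and 28% of all genes tested, and 6 of 7 fell in each genotype in the second, beside 14.5% and 22.9%. The largest rises called in the first step were those of Sox3, Tead2 and Zic2. Fgf5 had a mean of 10.81 CPM at day 0 and 10.84 at day 2 in wt, and 11.76 and 11.52 in het. Otx2, a regulator of the formative state, had 60.6 CPM at day 0 in wt and 57.1 in het. It then went from 65.8 CPM at day 2 to 6.03 at day 2.5 in wt and from 73.6 to 6.31 in het. Of the 9 tested paralogues of the members, 3 rose and 2 fell in wt in the first step, and 4 rose and 4 fell in het, with the same shares of all genes beside them. Among them Klf3 fell, from 72.7 to 28.8 CPM in wt, while Klf6 rose from 84.3 to 161 CPM.

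The members were compared with each other and with all genes by Pearson's r of log2 CPM over the 24 libraries, which share the large difference between day 0 and the later days. Between the members r ranged from 0.28 for Klf2 with Tbx3 to 0.99 for Zfp42 with Nr0b1. Tbx3 had its highest r with Klf5, 0.82, and Klf5 with Klf4, 0.93, whereas Nanog had its highest r with Esrrb, 0.97. Among the 12456 other genes that averaged 50 counts or more, those most like Nanog were Socs3, with r = 0.97, Esrrb and Arl14epl. Those most like Esrrb were Ckb, with r = 0.99, Socs3 and Agtrap. For Zfp42 and Nr0b1 the lists shared Sept1, a septin gene whose symbol the count table holds as a date, next to Ulk1 and Slc25a12 for Zfp42, and Zfp42 itself and Gm20509 for Nr0b1. Klf4 was closest to Trim25, Sgk1 and Eed, Klf2 to Itpk1, Tmem231 and Sod1, Tfcp2l1 to Coil, Id2 and Jam2, and Prdm14 to Casz1, Ulk1 and Sec14l1. Klf5 was closest to Eaf1, S100a6 and Tead4, with r from 0.94 to 0.95, and Tbx3 to Vangl1, Morf4l2 and Ddah1, with r from 0.88 to 0.90, the lowest of the 10.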

How the data were processed

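Per the study's methods, the authors trimmed 75-base single-end reads of poly(A) libraries with Trim Galore 0.4.4, aligned them to GRCm38 with HISAT2 2.0.5 and deposited raw counts per gene, quantified in SeqMonk. Whether strand was used in counting is not given in the sources used here. They also deposited log2 RPKM values for chosen factors, 9 of the 10 members among them, which served only to check the levels. The deposited count table also holds, as a score per group, the authors' mean of the 3 libraries' counts, which was not used.

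The counts were tested in edgeR 4.0.16 (R 4.3.3), with TMM scaling, filterByExpr by group, the quasi-likelihood test and Benjamini-Hochberg adjustment over all genes tested (threshold 0.05), on the groups compared alone and without a block. There were 6 comparisons of days, 4 of genotypes and 3 interactions. CPM used TMM over all 24 libraries, and RPKM used exon lengths from GENCODE vM21. Correlations used log2 CPM with 0.5 added, for genes that averaged 50 counts or more. The fits were also run on simulated counts with the same dispersion for all genes, large changes and no line effect. That setting differs from these data, so the run cannot speak for small changes or paired lines. All members are named in each comparison, with up to 3 called genes of largest log2 fold change from each other list and the 3 genes most like each member. Single endoderm markers and Fgf5 were named after their values were seen. Members and lists were chosen with earlier results of these data known. P-values rest on the spread between the libraries of a group, as edgeR moderates it across genes. With 1 library per line and day, spread between lines and between cultures of a line cannot be told apart.

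Across days, equal numbers name the same line, so these libraries are paired by design, and their deviations correlated at r from 0.135 to 0.500 between wt day 2.5 and day 3, from 0.084 to 0.111 between wt day 0 and day 2, and from -0.114 to 0.357 in the other pairs of days. Alternatives were other scalings, no filter beyond 1 count, DESeq2 1.42.0, 1 fit of all 24 libraries, the line as a block, leaving out each library and, chosen after seeing the data, leaving out wt line 1.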

Additional observations from a re-analysis of the deposited data

How the results depend on the processing

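The fall of all 10 members from day 0 to day 2 held in wt and het under every alternative run, leaving out each library included. Later steps depended on the settings. From day 2 to day 2.5 in wt, 1 member was called higher, and 2 were in 1 fit of all 24 libraries and without wt line 1, with 1 to 3 when single libraries were left out. In the same step 0 were called lower, and 1 was (Tfcp2l1) with no filter beyond 1 count, by DESeq2, in the fit of all 24 libraries and with the line as a block, with 0 to 1 when libraries were left out (1 without wt day 2 line 2). In het 1 was called lower, and 2 were with no filter and with the line as a block, with 1 to 2 when libraries were left out (2, with Nanog, without het day 2 line 2 or het day 2.5 line 3). From day 2.5 to day 3 in wt, where 1 was higher and 2 were lower, leaving out libraries gave 0 to 1 higher and 0 to 2 lower, and the fit of all 24 libraries gave 3 lower, with Nr0b1 (adjusted p from 0.00255 to 0.215 over its alternatives), and in het, where 1 was lower, 3 were with no filter and with the block, 2 in the fit of all 24 libraries, and 1 to 3 when libraries were left out (3 without het day 3 line 2). Of het against wt, 0 members were called on any day. With no filter beyond 1 count, 1 was higher (Tfcp2l1) and 1 lower (Klf2) at day 0, 1 was lower at day 2 (Klf5), and 1 interaction of the first step was lower (Klf5, -0.68, adjusted p = 0.00836). In that setting 1.66%, 1.77% and 0.245% of all genes tested were called, in the same order and in either direction. At day 2, 1 was lower (Klf5) also by DESeq2 and with the replicate number as a block (adjusted p = 0.0269), beside 1.84% and 0.629% of all genes. It was 0 to 1 when libraries were left out, over an adjusted p of 1.77e-04 to 0.376 for Klf5 across its alternatives. Between genotypes a shared number does not pair the lines, and 1, 0, 0 and 1 of 3 libraries correlated best with their own number on the 4 days. Among the members' values with an unadjusted p under 0.05, none changed sign under the alternatives run. Apart from the alternative's own construction the cause was not tested. Depth limits Prdm14, at 0 to 26 counts a library after day 0, and its later changes were not detectable at this depth.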
